A study of Mus musculus with 9 samples.

Results

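The genes described here are 8 dual-specificity phosphatases that act on MAP kinases: Dusp1, Dusp2, Dusp3, Dusp4, Dusp5, Dusp6, Dusp7 and Dusp16. They were chosen by gene symbol, and all 8 were present among the 13593 genes of the count table. RNA was sequenced from bone marrow-derived macrophages, which are macrophages grown from marrow progenitors in medium that contains the growth factor M-CSF. Marrow of C57BL/6 wild-type mice aged 6 weeks was cultured for 7 days with 15% L929 cell supernatant, the source of M-CSF, so every group shares that exposure. The macrophages then received 4 nM of bovine serum albumin (BSA, the control protein), CX3CL1 (fractalkine) or CCL26 (eotaxin-3) for 4 h, with 3 libraries per group. Both chemokines bind the receptor CX3CR1, and the study compared them. No group here lacked that receptor, so whether a difference runs through it was not tested. Whether the 3 libraries of a group came from separate mice or cultures is not stated in the labels. The p-values thus refer to variation among these libraries, part or all of which may be technical.

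MAP kinases (ERK, JNK and p38) are switched on when an upstream kinase phosphorylates a threonine and a tyrosine in their activation loop, and dual-specificity phosphatases switch them off by removing both phosphates. Dusp1, Dusp2, Dusp4 and Dusp5 encode nuclear enzymes whose genes are themselves induced by MAP kinase signalling, which closes a negative feedback loop. Dusp6 and Dusp7 encode cytoplasmic enzymes directed at ERK, Dusp16 encodes an enzyme directed at JNK and p38, and Dusp3 encodes a small phosphatase without the kinase-docking domain of the others. In macrophages DUSP1 is best known for limiting p38 and JNK after exposure to microbial products, and so the output of inflammatory cytokines.

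Library totals ran from 16923982 to 23198324 counts. The CX3CL1 replicate 1 library stood apart from the other 8: 1193 genes had no count in it, against 80 to 170 in each of the others. The members summed to 194 CPM (counts relative to the TMM-scaled library size) in that library and to between 472 and 507 CPM in the other 8. Tests of the members are therefore given first with all 9 libraries and then without CX3CL1 replicate 1. Macrophage markers were present, 15 of 15 listed, and summed to 32538 to 33187 CPM with BSA, 30664 to 46506 with CX3CL1 and 26633 to 27117 with CCL26. Of 26 listed markers of other cell types 12 were in the table, and they summed to 140 to 142, 150 to 412 and 137 to 142 CPM in the same order, while the T cell markers Cd3e and Cd3d were not analysed here. Lyz2 made up most of the macrophage sum, at 23489 ± 287 CPM with BSA and 18342 ± 281 CPM with CCL26 (SD, n = 3 each). Pf4 was the largest part of the other sum, at 81.9 ± 1.64 CPM with BSA, 144 ± 100 with CX3CL1 and 68.2 ± 3.99 with CCL26. For CX3CL1 against BSA the Pf4 log2 fold change was 0.81 with 9 libraries and 0.07 without CX3CL1 replicate 1. The part of these marker levels in the results was not tested. In such bulk RNA, fewer cells of a type and less RNA per cell cannot be told apart.

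Promoter windows are shown for the 3 members with the smallest p in CCL26 against BSA without CX3CL1 replicate 1. RefSeq (build GRCm38.p6) gave the 250 bases before the start for 7 of the 8 members. The start is that of RefSeq, and it can differ from the end of the GENCODE gene span given below. The Dusp1 window lies inside that span and the Dusp5 window partly inside it. The Dusp1 window lies at chr17:26508473-26508722 on the minus strand, the Dusp5 window at chr19:53528895-53529144 on the plus strand and the Dusp6 window at chr10:99262981-99263230 on the plus strand. Capitals mark letters that match a cAMP response element (CRE, TGACGTCA), its shorter core (TGACG, which also lies within the full element) or a CArG box, the element bound by serum response factor, on either strand.
Dusp1: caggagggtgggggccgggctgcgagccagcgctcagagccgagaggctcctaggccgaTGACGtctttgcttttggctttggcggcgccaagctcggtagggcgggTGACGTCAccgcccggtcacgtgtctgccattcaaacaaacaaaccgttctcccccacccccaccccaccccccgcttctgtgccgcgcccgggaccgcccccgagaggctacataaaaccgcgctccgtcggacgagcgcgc
Dusp5: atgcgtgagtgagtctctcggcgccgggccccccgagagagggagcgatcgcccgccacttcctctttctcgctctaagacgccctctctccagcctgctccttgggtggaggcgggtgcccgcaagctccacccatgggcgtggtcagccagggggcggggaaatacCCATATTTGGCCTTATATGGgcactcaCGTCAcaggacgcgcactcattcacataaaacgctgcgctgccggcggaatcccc
Dusp6: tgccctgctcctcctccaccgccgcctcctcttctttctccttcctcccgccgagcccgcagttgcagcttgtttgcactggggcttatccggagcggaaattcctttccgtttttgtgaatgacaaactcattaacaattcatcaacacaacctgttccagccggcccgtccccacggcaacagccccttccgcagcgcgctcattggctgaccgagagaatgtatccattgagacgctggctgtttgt
Dusp1 held 1 full CRE, at -143 to -136 from the start, and a separate core at -191 to -187. Dusp5 held 2 CArG boxes side by side, at -82 to -73 and -72 to -63, and a core at -55 to -51. No match was found in the Dusp6 window. Among the other 4 members with a window, Dusp16 held a core at -70 to -66, and no match was found for Dusp2, Dusp3 or Dusp7. Over 32851 windows of the same length, 1.55% held the full CRE, 17.8% the core and 1.47% a CArG box. A further search for the AP-1 site (TGANTCA, 6.75% of windows) and the NF-kB site (3.9% of windows) found 0 of 7 members with either. These matches describe letters and do not show binding.

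Most of the phosphatase message came from Dusp4, Dusp3 and Dusp1. Per kilobase of exon, over the 8 libraries without CX3CL1 replicate 1, Dusp4 stood highest at 49.9 ± 3.42 CPM per kb (SD, n = 8), or 36.8% of the summed level of the members. Dusp3 followed at 34.9 ± 1.83 CPM per kb and Dusp1 at 26.2 ± 3.38 CPM per kb. A gap separated these from Dusp7 at 10.4 ± 1.87 and Dusp16 at 6.01 ± 0.393 CPM per kb. The lowest were Dusp5 at 2.91 ± 0.886, Dusp2 at 2.7 ± 0.716 and Dusp6 at 2.69 ± 0.715 CPM per kb, with SDs that include differences between groups. Within BSA their ranges did not overlap, at 3.63 to 3.96 for Dusp5, 3.26 to 3.58 for Dusp6 and 2.65 to 3.07 CPM per kb for Dusp2. With CCL26 they overlapped, at 1.8 to 2.87, 1.71 to 2.13 and 1.86 to 4.17 CPM per kb in the same order. With the longest coding transcript as the length instead of all exons, Dusp1 stood at 43.5 ± 5.62 and Dusp3 at 36.7 ± 1.93 CPM per kb, so the order of these 2 genes depends on the gene model.

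The makeup of the set was also described by group. Dusp4 made up 35.2 ± 1.47% of the summed CPM per kb of exon with BSA and 39.3 ± 0.552% with CCL26 (SD, n = 3 each). Dusp3 made up 23.7 ± 0.289% and 27.1 ± 1.03%, and Dusp1 21.2 ± 2.47% and 17.5 ± 0.806%. Dusp6 made up 2.43 ± 0.0851% and 1.4 ± 0.101%, the smaller share being that with CCL26. These shares are descriptions, since a share moves whenever another member does. In CX3CL1 replicate 1 the makeup was unlike that of any other library: Dusp4 made up 7.94% and Dusp1 36.4%, while in the other 8 libraries Dusp4 made up 33.5% to 40%.

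**Figure D1:**
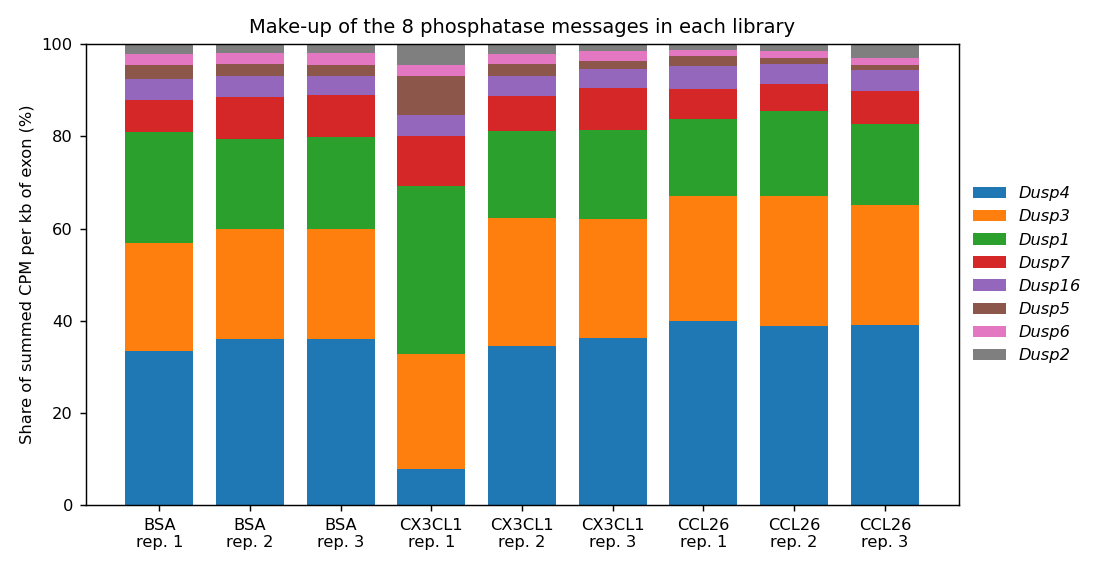
Share of each member in the summed CPM per kb of exon of the 8 members (vertical axis, percent) in each of the 9 libraries (horizontal axis, by group and replicate). Dusp4, Dusp3 and Dusp1 fill most of each bar, and in CX3CL1 replicate 1 the Dusp4 share was 7.94% against 33.5% to 40% elsewhere.

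Some members stood low in CX3CL1 replicate 1, by unequal amounts, and others did not. Dusp4 was at 11.5 CPM there against 123 and 132 CPM in the other CX3CL1 libraries, which is 11.1-fold lower than their mean, and 2.76% of 11381 genes had a lower ratio. Dusp3 was 2.7-fold lower, Dusp16 2.32-fold, Dusp6 2.15-fold and Dusp7 1.91-fold, where 12.3%, 16.1%, 18.1% and 22.4% of genes had a lower ratio. Dusp1 was 1.3-fold and Dusp2 1.07-fold lower, where 39.5% and 49.4% of genes had a lower ratio. Dusp5 stood higher in that library, at 1.58 times the mean of its replicates, where 74.5% of genes had a lower ratio. Over all genes this ratio had a median of 0.946 and quartiles of 0.556 and 1.6.

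**Figure D2:**
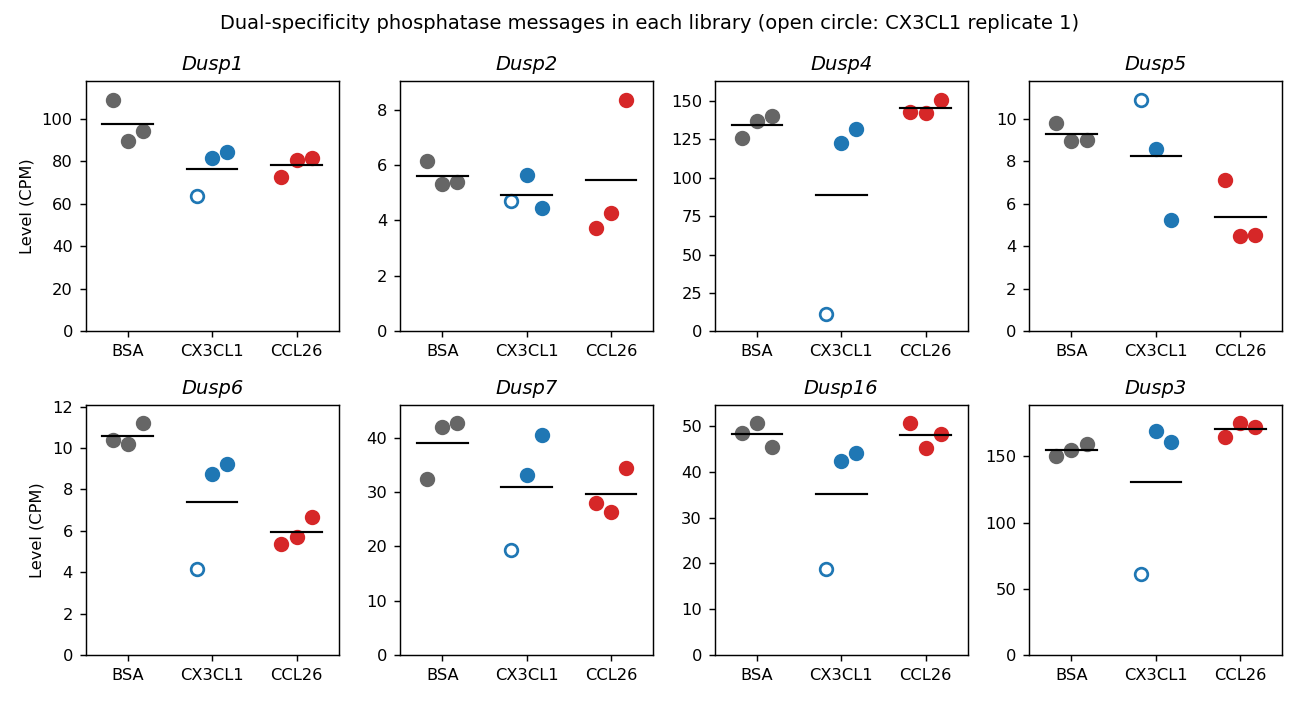
Level of each member in each library (vertical axis, CPM, a separate scale per panel) by group (horizontal axis). Points are libraries, the open circle is CX3CL1 replicate 1 and black lines are group means; Dusp6 lies at 10.2 to 11.2 CPM with BSA and at 5.37 to 6.68 CPM with CCL26.

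The first comparison, CCL26 against BSA, asked what the ligand CCL26 does to these macrophages. No member was called with all 9 libraries. Without CX3CL1 replicate 1, Dusp1, Dusp5, Dusp6 and Dusp7 were called lower with CCL26. Dusp3 was called slightly higher in that fit, and Dusp2, Dusp4 and Dusp16 were not called. The fold changes were nearly the same in both fits, while the standard errors were smaller without that library. The Dusp3 and Dusp7 calls also depended on further libraries, as given below. With all 9 libraries, edgeR, DESeq2 and limma-voom called 0 of the 8 members each, where they called 0.434%, 1.92% and 0.472% of the 12915 genes tested. By edgeR 2 members had an unadjusted p under 0.05, among 792 of all genes tested. Without CX3CL1 replicate 1, which belongs to neither group compared but enters the estimate of the spread, edgeR called 5 of 8 members: 1 higher and 4 lower. In that fit 9.74% of the 13245 genes tested were called higher and 9.26% lower. DESeq2 and limma-voom without that library called 5 members each, beside 19.4% and 18.9% of all genes. The median log2 fold change of the members was -0.18 in both fits, beside 0.00 for all genes tested with 9 libraries and 0.01 with 8. Marker genes moved in the same fit without CX3CL1 replicate 1: 8 of 15 macrophage markers were called lower with CCL26 and none higher, and of 11 tested markers of other cell types the neutrophil genes S100a8 (0.34) and S100a9 (0.35) were called higher and the platelet gene Pf4 (-0.26) lower. With all 9 libraries edgeR called none of these markers, 2 macrophage markers had an unadjusted p under 0.05, and the part of these shifts in the members' values was not tested.

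Dusp6 encodes the cytoplasmic ERK phosphatase MKP-3 and lies at chr10:99263231-99267489 (GRCm38, plus strand). It measured 10.4, 10.2 and 11.2 CPM with BSA, 8.74 and 9.21 CPM in CX3CL1 replicates 2 and 3, 4.17 CPM in CX3CL1 replicate 1, and 5.37, 5.71 and 6.68 CPM with CCL26. The CCL26 libraries all lay below the BSA libraries, with no overlap. The fitted log2 fold change was -0.84 (SE 0.281, adjusted p = 0.528) with all 9 libraries and -0.84 (SE 0.16, adjusted p = 0.000418) without CX3CL1 replicate 1. The size of the difference was thus the same in both fits, and its standard error was not. These values rest on 119 to 202 counts per library with BSA or CCL26.

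Dusp5 encodes a nuclear phosphatase specific for ERK and lies at chr19:53529109-53542431 (plus strand). It measured 9.8, 8.97 and 9 CPM with BSA and 7.1, 4.46 and 4.51 CPM with CCL26. The groups did not overlap, and CCL26 replicate 1 lay nearest to BSA. The log2 fold change was -0.79 (SE 0.294, adjusted p = 0.645) with 9 libraries and -0.78 (SE 0.206, adjusted p = 0.00809) without CX3CL1 replicate 1. An antisense gene, AC137853.2, overlaps its exons and was not analysed here.

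Dusp7 encodes the other cytoplasmic ERK phosphatase and lies at chr9:106368632-106375724 (plus strand). It measured 32.4, 42 and 42.7 CPM with BSA and 28, 26.3 and 34.5 CPM with CCL26. The groups overlapped, since CCL26 replicate 3 lay above BSA replicate 1. The log2 fold change was -0.40 (SE 0.26, adjusted p = 1) with 9 libraries and -0.40 (SE 0.114, adjusted p = 0.0144) without CX3CL1 replicate 1. The call was lost when BSA replicate 2, BSA replicate 3, CCL26 replicate 1 or CCL26 replicate 2 was also left out, with adjusted p of 0.0885, 0.0886, 0.0621 and 0.086 by edgeR.

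Dusp1 lies at chr17:26505590-26562128 (minus strand) in GENCODE, a span of 56539 bases. The RefSeq promoter window above, at chr17:26508473-26508722, lies within this span and not upstream of its outer end. It measured 109, 89.5 and 94.2 CPM with BSA and 72.5, 80.7 and 81.3 CPM with CCL26. All CCL26 libraries lay below all BSA libraries. The log2 fold change was -0.32 (SE 0.145, adjusted p = 0.829) with 9 libraries and -0.32 (SE 0.071, adjusted p = 0.00193) without CX3CL1 replicate 1. Exons of Dusp1 overlap those of Ergic1 on the opposite strand, and the sources used here do not state whether strand was used in counting, so reads of the 2 genes may not have been told apart. Ergic1, a gene of transport between the endoplasmic reticulum and the Golgi, measured 87.6, 80.8 and 82 CPM with BSA and 69.6, 69.3 and 73.8 CPM with CCL26. Its log2 fold change was -0.24 (SE 0.175, adjusted p = 1) with 9 libraries and -0.23 (SE 0.0641, adjusted p = 0.0107) without CX3CL1 replicate 1, and its part in the Dusp1 value was not tested.

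Dusp3 encodes VHR, a phosphatase of ERK and JNK, and lies at chr11:101971143-101987013 (minus strand). It measured 150, 155 and 159 CPM with BSA and 165, 175 and 172 CPM with CCL26. The CCL26 libraries lay above the BSA libraries without overlap, by a small margin. The log2 fold change was 0.14 (SE 0.312, adjusted p = 1) with 9 libraries and 0.15 (SE 0.0484, adjusted p = 0.0348) without CX3CL1 replicate 1. The call was lost by edgeR when only the BSA and CCL26 libraries were fitted (adjusted p = 0.0597), and when BSA replicate 1, BSA replicate 2 or CCL26 replicate 2 was also left out (0.141, 0.0965 and 0.11). The antisense gene Gm20659 overlaps its exons and was not analysed here.

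The remaining members did not pass the test with CCL26 in either fit. Dusp4, the nuclear phosphatase MKP-2, lies at chr8:34807297-34819894 (plus strand) and measured 126, 137 and 140 CPM with BSA and 143, 142 and 151 CPM with CCL26. Its groups did not overlap, and its log2 fold change was 0.11 (SE 0.641, adjusted p = 1) with 9 libraries and 0.12 (SE 0.0545, adjusted p = 0.143) without CX3CL1 replicate 1. The first of these standard errors was the widest of the 8 members. Dusp16, the JNK and p38 phosphatase MKP-7, lies at chr6:134715468-134792625 (minus strand) and measured 48.5, 50.6 and 45.5 CPM with BSA and 50.6, 45.1 and 48.3 CPM with CCL26. These ranges overlapped almost whole, with a log2 fold change of -0.01 (SE 0.276, adjusted p = 1) and then 0.00 (SE 0.0772, adjusted p = 0.981). Dusp2, the nuclear phosphatase PAC-1 of blood cells, lies at chr2:127336159-127338376 (plus strand) and measured 6.16, 5.3 and 5.38 CPM with BSA and 3.73, 4.27 and 8.36 CPM with CCL26. CCL26 replicates 1 and 2 lay below every BSA library and CCL26 replicate 3 above every one, and the log2 fold change was -0.05 in both fits (SE 0.307 and then 0.245, adjusted p = 1 and 0.925).

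Counted without a test, the groups did not overlap for 5 members. Dusp3 and Dusp4 were higher with CCL26 in every library, where 16.6% of all genes tested were. Dusp1, Dusp5 and Dusp6 were lower in every library, where 16.5% of all genes were. The summed level of the members overlapped between the groups, at 493 to 507 CPM with BSA and 475 to 507 CPM with CCL26.

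**Figure D3:**
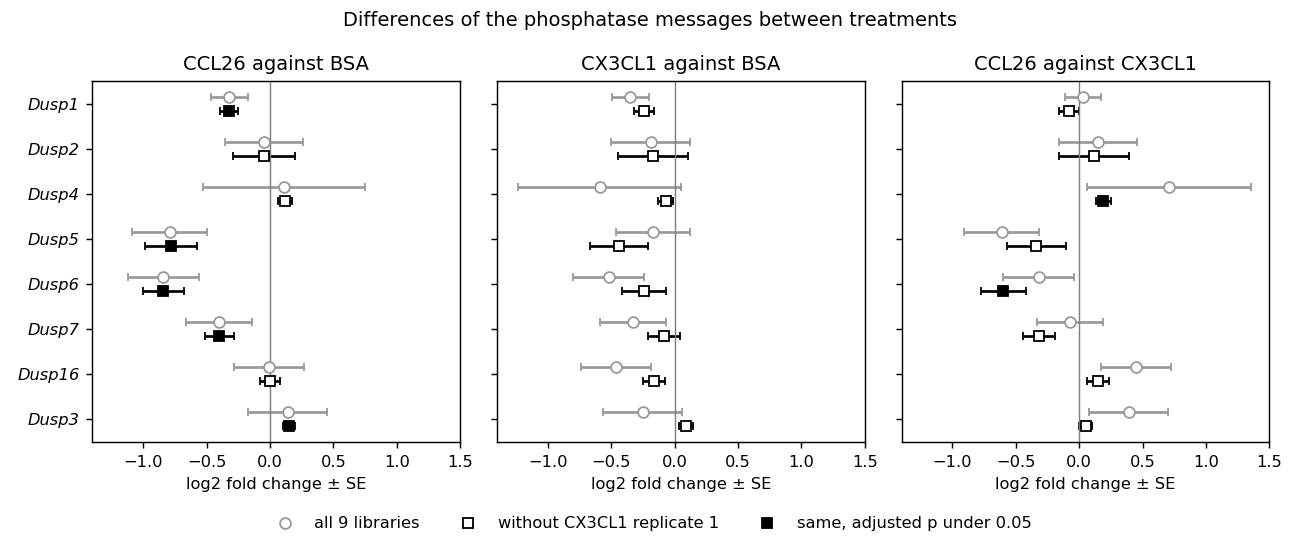
Log2 fold change with its standard error (horizontal axis) for each member (vertical axis) in the 3 comparisons, with all 9 libraries (grey circles) and without CX3CL1 replicate 1 (black squares, filled where the adjusted p is under 0.05). For CCL26 against BSA the 2 estimates lie together, and the Dusp4 error shrinks from 0.641 to 0.0545.

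For CX3CL1 against BSA, the question was what the other ligand does. No member passed the test. With all 9 libraries edgeR, DESeq2 and limma-voom called 0 of 8 members each and 0% of all genes tested. By edgeR 1 member (Dusp1) had an unadjusted p under 0.05, among 405 of 12915 genes tested. When CX3CL1 replicate 1 was left out, edgeR again called 0 members, and 0.332% of all genes were called. In that fit 1 member had an unadjusted p under 0.05, among 991 of 13245 genes tested. DESeq2 and limma-voom without that library called 0 members each, beside 0.657% and 0.483% of all genes. The fitted log2 fold changes were negative for 8 of 8 members with 9 libraries (median -0.34, beside -0.01 for all genes tested) and for 7 of 8 without CX3CL1 replicate 1 (median -0.16, beside 0.00).

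Dusp1 measured 63.5, 81.3 and 84.4 CPM in the CX3CL1 libraries, all below the BSA libraries. Its log2 fold change was -0.35 (SE 0.146, adjusted p = 0.711) with 9 libraries and -0.24 (SE 0.0796, adjusted p = 0.375) without CX3CL1 replicate 1. Dusp6 and Dusp16 likewise lay below BSA in each CX3CL1 library, where 895 of 12915 genes tested did. In one direction or the other 11.7% of all genes tested were apart. For Dusp6 the log2 fold change was -0.52 (SE 0.279, adjusted p = 0.711) with 9 libraries and -0.24 (SE 0.175, adjusted p = 0.818) without CX3CL1 replicate 1. For Dusp16 it was -0.46 (SE 0.277, adjusted p = 0.711) and then -0.16 (SE 0.0871, adjusted p = 0.725). Both differences were thus smaller without that library. Dusp5 measured 10.9, 8.57 and 5.24 CPM, which spans the BSA range on both sides, with a log2 fold change of -0.17 (SE 0.292, adjusted p = 0.793) and then -0.44 (SE 0.229, adjusted p = 0.707). Dusp7 measured 19.3, 33.2 and 40.5 CPM, overlapping BSA, at -0.33 (SE 0.26, adjusted p = 0.711) and then -0.08 (SE 0.126, adjusted p = 0.951). Dusp2 measured 4.7, 5.62 and 4.44 CPM, also overlapping BSA, at -0.19 (SE 0.308, adjusted p = 0.785) and then -0.17 (SE 0.277, adjusted p = 0.951).

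The sign of the Dusp3 difference followed 1 library. Dusp3 measured 61.2, 169 and 161 CPM with CX3CL1, so that replicate 1 lay below and the other libraries above every BSA library. The log2 fold change was -0.25 (SE 0.312, adjusted p = 0.743) with 9 libraries and 0.09 (SE 0.054, adjusted p = 0.745) without that library. For Dusp4 the log2 fold change went from -0.59 (SE 0.644) to -0.07 (SE 0.0613), with adjusted p of 0.72 and 0.846.

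CCL26 against CX3CL1 tested the difference between the ligands directly. With all 9 libraries edgeR, DESeq2 and limma-voom called 0 of 8 members each, where they called 0.41%, 1.94% and 0.441% of all genes. By edgeR 0 members had an unadjusted p under 0.05, where 1484 of 12915 genes tested did. Without CX3CL1 replicate 1, Dusp6 was lower and Dusp4 higher with CCL26 than with CX3CL1, among 4.64% of all genes called lower and 5.47% called higher. DESeq2 and limma-voom without that library called 2 members each, beside 11.2% and 10.5% of all genes.

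For Dusp6 the log2 fold change between the ligands was -0.32 (SE 0.281, adjusted p = 0.57) with 9 libraries and -0.60 (SE 0.178, adjusted p = 0.0294) without CX3CL1 replicate 1. The 3 CCL26 libraries lay below CX3CL1 replicates 2 and 3 and above replicate 1. For Dusp4 the log2 fold change was 0.71 (SE 0.645, adjusted p = 0.585) and then 0.19 (SE 0.0611, adjusted p = 0.0492). Both calls ended when the BSA libraries were left out of the fit as well, with adjusted p of 0.0661 for Dusp6 and 0.0762 for Dusp4. They also ended with a further library left out: for Dusp6 with CX3CL1 replicate 2 (0.119), CX3CL1 replicate 3 (0.203), CCL26 replicate 1 (0.1) or CCL26 replicate 2 (0.0735), and for Dusp4 with any further library but BSA replicate 1, up to 0.414.

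The other 6 members passed the test in neither of these fits. Dusp5 had a log2 fold change of -0.61 (SE 0.295, adjusted p = 0.423) with 9 libraries and -0.34 (SE 0.232, adjusted p = 0.434) without CX3CL1 replicate 1. Dusp7 had -0.07 (SE 0.26, adjusted p = 0.891) and then -0.32 (SE 0.127, adjusted p = 0.119), and with CCL26 replicate 3 left out as well its adjusted p was 0.00997. Dusp1 was at 0.03 (SE 0.145, adjusted p = 0.912) and then -0.08 (SE 0.0796, adjusted p = 0.616). Its sign thus differed between these fits, and it also turned with upper quartile scaling of all 9 libraries. Dusp3 went from 0.39 (SE 0.313) to 0.05 (SE 0.0539), Dusp16 from 0.45 (SE 0.277) to 0.15 (SE 0.0869) and Dusp2 from 0.15 (SE 0.308) to 0.12 (SE 0.276), each with an adjusted p of at least 0.324 in both fits. Without a test, Dusp4 and Dusp16 lay higher in every CCL26 library than in any CX3CL1 library, where 1661 of 12915 genes tested did. In either direction 22.6% of all genes tested were apart.

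The rest of the MAP kinase pathway was read from lists of 143 further genes. These lists were chosen with earlier results of these data known, so their shares called are descriptions and no test of the pathway. With all 9 libraries, 121 were tested in CCL26 against BSA and 3 were called, all higher: Tnf (0.93 on the log2 scale, SE 0.124, adjusted p = 0.0205), Cxcl2 (1.05, SE 0.157, adjusted p = 0.0344) and Myc (0.88, SE 0.132, adjusted p = 0.0344). Tnf and Cxcl2 encode an inflammatory cytokine and a neutrophil chemokine whose messages p38 helps to stabilise, and Myc encodes a growth transcription factor. In the fit without CX3CL1 replicate 1, 122 were tested, 15 were called higher and 18 lower, or 27%, beside 19% of all genes tested. The values in the next paragraphs are from that fit, in which none but these 3 genes was also called with 9 libraries.

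The kinase genes fell in 4 lists, whose shares called ran from 10% to 30%, around the 19% of all genes. Of 10 MAP kinase genes tested 1 rose, Mapk6 (encoding the atypical kinase ERK3), by 0.22 on the log2 scale (SE 0.0421, adjusted p = 0.000365). The ERK and p38 alpha genes gave no call, with Mapk14 (p38 alpha) at -0.08 (SE 0.0485). Of 7 MAP kinase kinases 1 fell, Map2k3, which activates p38, from 125 ± 2.44 to 89.6 ± 4.13 CPM (SD, n = 3 each; log2 fold change -0.48, adjusted p = 4.83e-07). Of 21 kinases and adaptors above them 2 rose and 1 fell, among them Map3k4 at 0.36 and Tab2 at -0.16. Of 10 kinases that MAP kinases activate 1 rose and 2 fell: the p38 target Mapkapk2 at 0.28, Mknk2 at -0.31 and Rps6ka1 at -0.16.

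Other brakes on the pathway went in both directions. Of 13 other dual-specificity phosphatases tested 1 rose, Dusp8, which acts on JNK and p38, from 3.9 ± 0.364 to 5.96 ± 0.921 CPM (adjusted p = 0.0359), a log2 fold change of 0.62 with an SE of 0.205. Of 8 phosphatases of other classes 1 fell, Ppm1d, at -0.29 (SE 0.0929, adjusted p = 0.0271). Of 8 feedback inhibitors of ERK signalling 1 rose and 2 fell. Spred1 rose from 60.1 ± 4.11 to 96.1 ± 3.59 CPM (adjusted p = 2.54e-08), while Spry2 fell from 15.5 ± 2.11 to 10 ± 1.13 CPM (adjusted p = 0.00209) and Spred3 by 0.59 on the log2 scale (adjusted p = 0.0478).

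Genes downstream of the kinases also split. Of 25 early genes 2 rose, Myc and Egr3, and 7 fell, including Jun at -0.25 (SE 0.0441) and Ier3 at -0.53 (SE 0.0702). Egr3 was at 0.685 ± 0.518 CPM with BSA and at 5.42 ± 1.5 CPM with CCL26. Of 9 cytokine messages regulated by p38, 6 rose and none was called lower, with Cxcl1 at 1.27 and Il6 at 1.56, beside Tnf, which went from 39.7 ± 1.48 to 75.7 ± 5.56 CPM. Il1b and Il10 had log2 fold changes of -0.75 (SE 0.269, adjusted p = 0.0522) and -0.70 (SE 0.347, adjusted p = 0.174), and both were lower in every CCL26 library than in any BSA library. Of 11 targets of cAMP and glucocorticoid signalling, a class to which Dusp1 belongs, 1 rose and 4 fell. Crem, a cAMP-induced repressor, went from 33.2 ± 1.93 to 16.5 ± 1.72 CPM (adjusted p = 1.39e-07). Nr4a2 fell by 1.03, Klf9 by 0.55 and Sik1 by 0.39 on the log2 scale, and Pde4b, which degrades cAMP, rose by 0.90. Fkbp5 at 0.13 and Tsc22d3 at -0.12 were among the genes of this list not called. Whether these genes and Dusp1 share a cause was not tested.

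**Figure D4:**
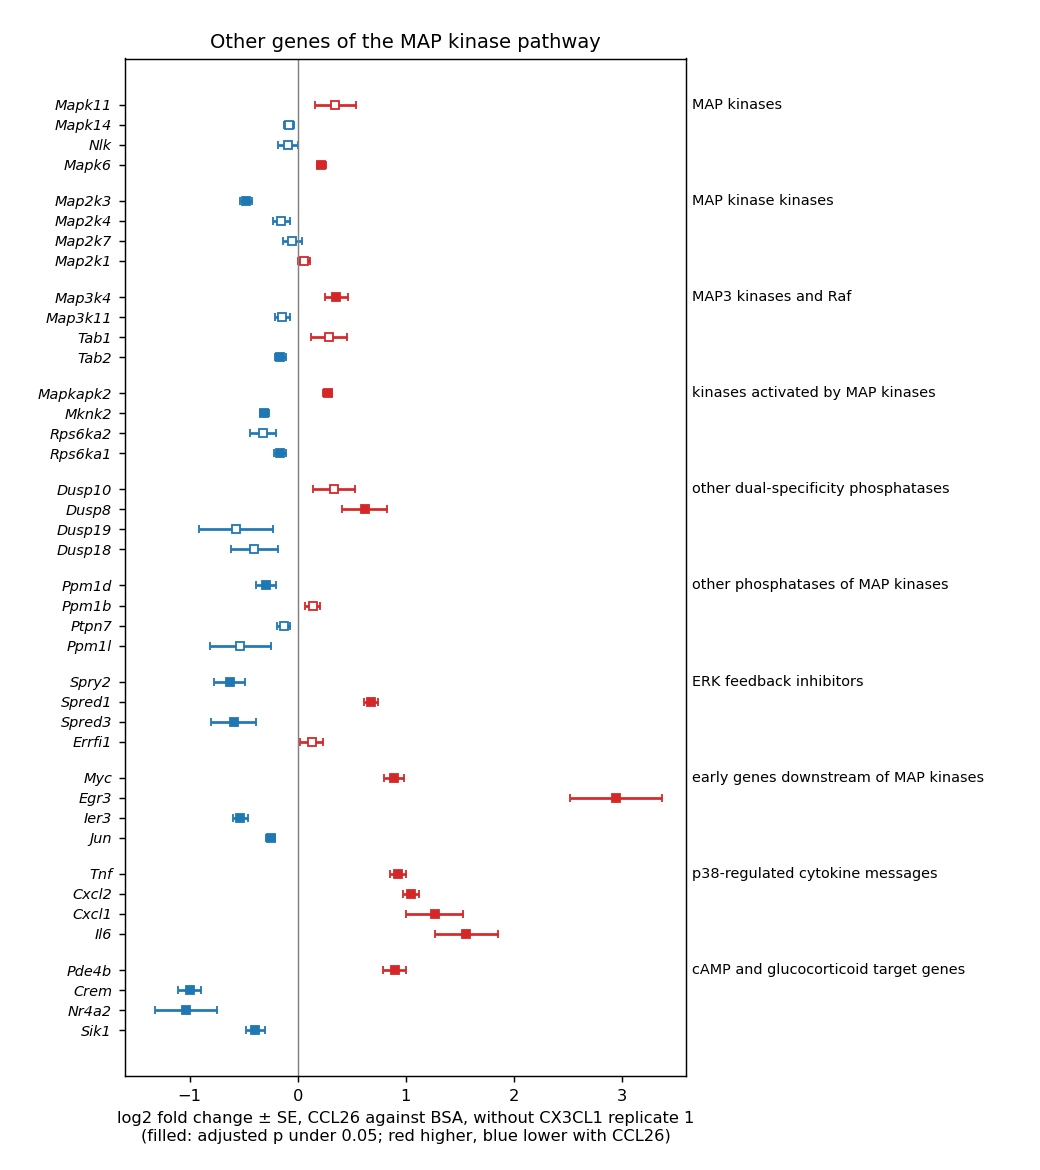
Log2 fold change with its standard error (horizontal axis), CCL26 against BSA without CX3CL1 replicate 1, for 40 named genes of the pathway lists (vertical axis, by list). The 4 cytokine messages plotted, those with the smallest p of 9, lie to the right, up to 1.56 for Il6. Egr3 lies highest of the 40, at 2.95, and Nr4a2 lowest, at -1.03.

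In CX3CL1 against BSA, edgeR without CX3CL1 replicate 1 called 3 of the 122 list genes (2.46%, beside 0.332% of all genes), all lower: Crem, Junb and Atf3. In CCL26 against CX3CL1 edgeR called 4 higher with all 9 libraries, and 17 higher and 8 lower without CX3CL1 replicate 1 (20.5%, beside 10.1% of all genes). Since these comparisons share libraries with CCL26 against BSA, they are not independent of it. Their shares are descriptions too, because the lists were chosen with earlier results known.

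The genes whose pattern over the libraries was most like that of Dusp6 and Dusp5 were found among 8114 genes of at least 10 CPM, by the root mean square distance between centred log2 CPM profiles. Over 9 libraries Zfp36l2, which encodes an mRNA decay factor, lay nearest to Dusp6 at 0.0995, followed by the amino acid transporter Slc38a2 at 0.13 and the ubiquitin ligase subunit Fbxw7 at 0.151, where the Dusp6 profile had an SD of 0.441. Zfp36l2 was again nearest without CX3CL1 replicate 1, at 0.0852, before Zbtb2 at 0.0869 and the AP-1 subunit Fosl2 at 0.104. Nearest to Dusp5 were Tfpi at 0.197, Ly86 at 0.205 and Akr1c12 at 0.223 over 9 libraries, beside a profile SD of 0.435. Without CX3CL1 replicate 1 they were Atp5l at 0.116, Atpif1 at 0.184 and Mrps6 at 0.206, so the nearest genes of Dusp5 depended on that library.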

How the data were processed

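The authors deposited 1 table of raw counts per gene for 9 libraries. RNeasy Mini columns, NEBNext Ultra II libraries and NovaSeq read pairs of 150 bp were used, per the labels' protocols. The tools STAR, featureCounts and MultiQC, with no version, and the builds GRCm38 and mm10 appear in the submitters' processing notes. No deposited gene was under 0.431 CPM in its second-highest library, and the sources used here do not give the authors' filter. Columns were matched to libraries by the sample codes in the labels.

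Genes were filtered with filterByExpr, scaled by TMM and tested in R 4.3.3 by the quasi-likelihood F test of edgeR 4.0.16 in 1 fit over the 3 groups, with Benjamini-Hochberg adjustment over all genes tested and a threshold of 0.05. The fit was repeated without CX3CL1 replicate 1, which was known from earlier results of these data to stand apart. Fold changes are on the log2 scale and positive where the group named first was higher. Alternatives used DESeq2 1.42.0, limma 3.58.1 (voom), other scalings and filters, and left-out libraries. Scripts were tested on simulated data. Coordinates and lengths come from GENCODE M21, and symbols missing for 1343 genes were filled from it for 1333. The named genes are all 8 members, up to 4 genes of each pathway list with the smallest p in CCL26 against BSA, and the 3 genes of most like pattern for the 2 members with the smallest p in that comparison. Likeness used log2(CPM + 0.5). Members and lists were chosen with earlier results of these data known. Junb, Atf3, Il1b, Il10, Klf9, Fkbp5, Tsc22d3, S100a8, S100a9, Pf4 and Ergic1 were named after their values were seen.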

Additional observations from a re-analysis of the deposited data

How the results depend on the processing

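For CCL26 against BSA the number of members called moved from 0 to 4 with limma-voom library quality weights, to 4 with only the 6 libraries compared, and to 5 with DESeq2 and with limma-voom once CX3CL1 replicate 1 was left out. The share of all genes called moved as well, from 0.434% to 19.2%, 19.3%, 19.4% and 18.9% in that order. Leaving out 1 library gave 0 to 5, where only CX3CL1 replicate 1 gave more than 0, and 0.0676% to 19% of all genes were called. Leaving out a BSA or CCL26 library beside CX3CL1 replicate 1 gave 3 to 5, where 14.5% to 20.8% of all genes were called. For CCL26 against CX3CL1 quality weights gave 1 member (10.4% of all genes). DESeq2 and limma-voom without CX3CL1 replicate 1 gave 2 each (11.2% and 10.5% of all genes). Leaving out 1 library gave 0 to 2 there, where 0.0755% to 10.1% of all genes were called. A BSA or CCL26 library left out beside CX3CL1 replicate 1 also gave 0 to 2, where 8.11% to 13.1% of all genes were called. For CX3CL1 against BSA every alternative with at least 2 libraries per group gave 0, where 0% to 1.42% of all genes were called. Where leaving out a second library left 1 CX3CL1 library, that library is assumed to vary like the other groups. The edgeR fit without CX3CL1 replicate 1 was planned with that library already known, from earlier results of these data, to stand apart. Its choice was thus not independent of the data. DESeq2 and limma-voom without CX3CL1 replicate 1, and leaving out a second library, were added after seeing the data. Over the 12 fits without CX3CL1 replicate 1, Dusp1, Dusp5 and Dusp6 were called in 12 for CCL26 against BSA, and Dusp3 and Dusp7 in 8 each.

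With a replicate block, edgeR called 0 members in each comparison. Of all genes it called 0.108% for CCL26 against BSA, 0% for CX3CL1 against BSA and 0.0852% for CCL26 against CX3CL1. Deviations from the group means correlated at -0.11 to 0.08 between same-numbered libraries and at -0.12 to 0.12 between differently numbered ones. The labels do not say what the replicate number marks, so these values cannot show whether libraries were paired.

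These log2 fold changes changed sign; no value of the turned sign was called, and the cause was not tested. For CX3CL1 against BSA, Dusp3 was 0.08 with quality weights on all libraries and, without CX3CL1 replicate 1, 0.09 with the compared groups alone, DESeq2 or limma-voom. Leaving out libraries gave -0.47 to 0.13 for Dusp3, -0.82 to 0.07 for Dusp5 and -0.57 to 0.05 for Dusp7. For CCL26 against CX3CL1, Dusp1 was -0.01 with upper quartile scaling, -0.10 with quality weights, -0.08 with the 2 groups alone without CX3CL1 replicate 1, and -0.09 with DESeq2 or limma-voom without it; Dusp2 was -0.12 with quality weights. Leaving out libraries gave -0.11 to 0.11 for Dusp1, -0.32 to 0.36 for Dusp2, -0.87 to 0.04 for Dusp5 and -0.45 to 0.17 for Dusp7, which was called lower in 1 fit (without CX3CL1 replicate 1 and CCL26 replicate 3). For CCL26 against BSA it gave -0.49 to 0.17 for Dusp2 and -0.05 to 0.04 for Dusp16.

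Depth limits the low members: Dusp2, Dusp5 and Dusp6 had 63 to 218 counts per library.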

Other observations

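Members of the wider dual-specificity phosphatase family did not all stand low in CX3CL1 replicate 1. Styx, which encodes a catalytically inactive member, had 24 counts in that library against 170 to 295 in the other 8, and Dusp8 had 20 against 62 to 157. Dusp9 and Dusp14 had 0 counts there, against 1 to 22 and 6 to 39. In the other direction, Dusp12 had 95 counts against 45 to 75, and Dusp22 303 against 164 to 296. By level, Dusp28 was at 7.81 CPM against 2.44 to 5.49 CPM and Dusp11, which acts on RNA, at 104 CPM against 145 to 171 CPM. These genes were chosen after their values were seen.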
